A study of Mus musculus with 4 samples.

Results

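The genes described here are 10 mucins and goblet cell secretory genes, measured in mouse intestinal organoids: Muc1, Muc2, Muc4, Muc13, Agr2, Fcgbp, Tff3, Zg16, Spdef and Ern2. They were chosen by name, as all probe sets whose platform gene symbol is one of the 10, and are 10 of 18193 genes with a probe set of their own. The platform holds 16 such probe sets: 6 genes have 1, 2 genes have 2 (Agr2, Muc13) and 2 genes have 3 (Muc4, Zg16). Organoids are cultures of intestinal epithelium that grow in 3 dimensions and hold several of its cell types. The 4 groups were Tacc3 wt/wt organoids at day 4 and at day 6 and Tacc3 fl/fl organoids at day 4 and at day 6, with 1 Affymetrix array each. All 4 cultures had received 4OHT (4-hydroxytamoxifen) for 24 hours, the drug that in this system induces recombination of floxed Apc and Tacc3, so the controls were drug-treated too. The sample descriptions call day 4 cultures normal and day 6 cultures Apc-deficient, whereas the design text has Apc recombined before either day, and the Cre line, the age and the number of animals behind a culture are unknown from those labels.

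Goblet cells are the mucus-secreting cells of the intestinal epithelium. They pack gel-forming mucin, chiefly Muc2, into granules after folding it in the endoplasmic reticulum (ER) and coating it with O-linked sugars, and release it together with small proteins such as trefoil factor 3. Membrane-bound mucins such as Muc1, Muc4 and Muc13 instead stay on the apical surface, and absorptive cells make them too.

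Epithelial markers were detected: all 9 of 9 (Epcam, Cdh1, Vil1, keratins and Cdx factors) lay above the level filter, an intensity of about 16.9, which is the median of all probe sets. The filter takes a gene's mean log2 level over the 4 arrays, so a gene above it can lie below that intensity on single arrays. Of 10 goblet cell markers 9 lay above it, Retnlb being the exception, whereas 0 of 3 endothelial, 2 of 6 mesenchymal and 2 of 5 immune markers did. Of all 18193 genes, 11392 lay above it. The immune markers above it were Cd3e, between 13.7 and 27.1, and Lyz2, which was bright. Lyz2 gave 1887 and 2857 at day 4 (wt/wt, then fl/fl) and 1533 and 1136 at day 6. Which cells gave the Lyz2 signal was not tested. For Tacc3, the targeted spindle gene, the wt/wt arrays gave 184 (day 4) and 167 (day 6) and the fl/fl arrays 59.8 and 49.7. The days differed in a sign of RNA quality: Actb had a ratio of 5' to 3' signal of 0.0610 and 0.0627 at day 4 (wt/wt, then fl/fl) against 0.180 and 0.261 at day 6, and Gapdh one of 0.208 and 0.142 against 0.411 and 0.524. Every day comparison below is between arrays that differ in these ratios, whose part in it was not tested, and day and processing of the arrays cannot be told apart. The genotypes differed too, at day 4 in Gapdh (0.208 against 0.142) though hardly in Actb, and at day 6 in both. The part of these ratios in the genotype comparisons was not tested either. With 1 array per group, a difference between 2 groups has no replicate error, and 2-fold (1 on the log2 scale) is a threshold of size only.

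Promoters are shown for 4 members on which the results turn and that have an entry in the RefSeq table (build GRCm38.p6), which covers 7 of the 10 genes with 8 promoters: Muc2, Agr2 and Spdef, which were highest in fl/fl organoids at day 4, and both promoters of Muc13, which was higher at day 6. Each runs from 250 bases before to 50 bases after the annotated start, 5′ to 3′. Capitals mark matches on either strand to the E-box cores CAGCTG and CAGATG, the Ets core ACCGGAA, the FOX core TGTTTAC, the unfolded protein response letters CCACG and TGACGTG, and TATAAA.
Muc2 (chr7:141690090-141690389, + strand): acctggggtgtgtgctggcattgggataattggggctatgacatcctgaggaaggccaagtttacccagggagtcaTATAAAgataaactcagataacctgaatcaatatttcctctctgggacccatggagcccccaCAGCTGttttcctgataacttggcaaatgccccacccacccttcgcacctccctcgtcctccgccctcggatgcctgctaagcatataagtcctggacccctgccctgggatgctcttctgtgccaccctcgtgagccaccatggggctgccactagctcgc
Agr2 (chr12:35992675-35992974, + strand): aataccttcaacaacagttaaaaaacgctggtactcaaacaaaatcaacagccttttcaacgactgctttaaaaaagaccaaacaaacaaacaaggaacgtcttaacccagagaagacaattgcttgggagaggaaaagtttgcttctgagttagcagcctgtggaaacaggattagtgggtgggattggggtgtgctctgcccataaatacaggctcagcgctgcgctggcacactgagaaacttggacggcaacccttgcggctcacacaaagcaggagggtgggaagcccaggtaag
Spdef (chr17:27728902-27729201, - strand): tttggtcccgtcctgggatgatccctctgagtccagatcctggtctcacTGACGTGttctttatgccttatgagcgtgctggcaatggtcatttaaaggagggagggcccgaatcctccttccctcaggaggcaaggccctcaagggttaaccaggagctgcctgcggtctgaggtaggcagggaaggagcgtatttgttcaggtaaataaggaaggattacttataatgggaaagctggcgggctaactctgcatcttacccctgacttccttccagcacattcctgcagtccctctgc
Muc13, first start (chr16:33793787-33794086, + strand): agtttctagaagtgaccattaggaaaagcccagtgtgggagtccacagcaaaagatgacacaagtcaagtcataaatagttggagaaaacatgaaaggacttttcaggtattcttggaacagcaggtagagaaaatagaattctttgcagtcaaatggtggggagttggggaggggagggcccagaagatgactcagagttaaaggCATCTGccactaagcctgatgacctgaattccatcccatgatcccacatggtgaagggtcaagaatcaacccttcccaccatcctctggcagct
Muc13, second start (chr16:33794239-33794538, + strand): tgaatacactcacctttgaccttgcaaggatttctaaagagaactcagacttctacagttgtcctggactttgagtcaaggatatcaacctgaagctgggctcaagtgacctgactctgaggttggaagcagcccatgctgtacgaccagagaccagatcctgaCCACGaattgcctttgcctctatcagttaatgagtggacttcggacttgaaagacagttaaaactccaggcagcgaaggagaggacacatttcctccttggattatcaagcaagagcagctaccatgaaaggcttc

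The Muc2 promoter held TATAAA at position -174 from the start and CAGCTG at -112, letters found in 13.6% and 16.3% of the 32851 promoters searched. That of Spdef held TGACGTG at -201, found in 2.01%, and the Muc13 promoters held CAGATG (17.2%) on the opposite strand at -44 of the first start and CCACG (32.8%) at -86 of the second. The Agr2 window held none of the 7, and ACCGGAA (3.72%) and TGTTTAC (3.65%) were in 0 of the 8 member promoters. Of the members not printed, Muc1 and Muc4 had TATAAA at -31 and -36, Muc1 also CAGATG at -193, and Fcgbp CAGCTG at -208. These matches are letters in a short window and say nothing of which factor binds.

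**Figure D1:**
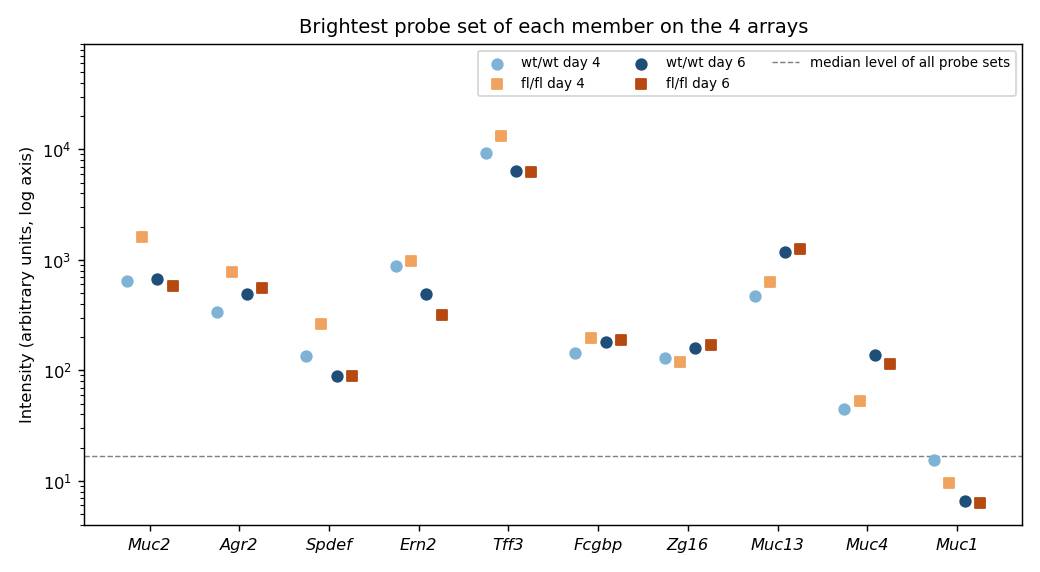
Intensity (arbitrary units, log axis) of the brightest probe set of each member on the 4 arrays, 1 point per array. Muc2, Agr2, Spdef, Ern2, Tff3 and Fcgbp are highest in fl/fl organoids at day 4, Muc13 and Muc4 are higher on both day 6 arrays, and Muc1 lies below the dashed line on every array.

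Muc2, the gel-forming mucin of intestinal mucus, stood out in fl/fl organoids at day 4. On its single probe set, 1428435_at, the day 4 arrays gave 648 (wt/wt) and 1611 (fl/fl) and the day 6 arrays 676 and 583, in the same order of genotypes as all pairs of values below. A single array was thus high, at 2.49 times its wt/wt counterpart, while the other 3 lay close together. In the plot of member intensities, 6 of the 10 members had their highest value on that array: Muc2, Agr2, Spdef, Ern2, Tff3 and Fcgbp; 25% of all 11392 genes above the filter did. Since these are bulk samples, more goblet cells and more RNA per goblet cell cannot be told apart.

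Agr2, the disulfide isomerase of the ER that Muc2 production depends on, followed the same order at day 4. On 1419268_at the day 4 pair was 340 and 781 and the day 6 pair 488 and 560. On its other probe set, 1455802_x_at, the pairs were 96.7 with 163 and 96.0 with 89.9, so that both were highest in fl/fl organoids at day 4. The day 4 ratio of fl/fl to wt/wt was 2.30 on the first and 1.68 on the second.

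Spdef, an Ets-family transcription factor needed for goblet and Paneth cell maturation, had a day 4 pair of 134 and 264 (1450220_a_at). At day 6 the genotypes were nearly equal, at 88.2 and 89.0, and both lay below either day 4 array. The day 4 ratio of 1.97 fell just short of 2-fold.

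Ern2, the gut form of the ER stress sensor IRE1, was high on both day 4 arrays (1450139_at), with 890 and 986. The day 6 pair was 489 and 321. Here fl/fl organoids were the higher genotype at day 4, by a ratio of 1.11, and the lower at day 6, at 0.655 of the wt/wt value.

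Tff3, the trefoil peptide secreted with mucus, gave 9264 and 13202 at day 4 (1417370_at), against a day 6 pair of 6314 and 6223. Both day 6 arrays again lay below both day 4 arrays. Fcgbp, a large protein of the mucus gel that binds the Fc part of IgG, stayed between 143 and 197 on the 4 arrays (1426872_at). Zg16, a lectin of the mucus that binds Gram-positive bacteria, gave 129 and 120, then 159 and 170, on its brightest probe set, 1434137_x_at. The other 2 Zg16 probe sets were dimmer: 1428359_s_at went from 22.6 and 37.6 to 55.6 and 76.3, and 1428358_at stayed between 16.6 and 21.3, close to the filter.

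The membrane mucin Muc13 was higher on both day 6 arrays. Its day 4 pair was 467 and 626 and the day 6 pair 1174 and 1256 (1419387_s_at), and its other probe set, 1419386_at, had the same order, with 71.6 and 106 before 199.6 and 210.4. Muc4 gave 44.6 and 53.0, then 138 and 115, on 1438555_x_at. That direction was not shared by all its probe sets: 1427398_at gave 15.1 and 20.8, then 25.2 and 14.8, and 1432119_at stayed under 9 on all 4 arrays. Muc1, measured by 1449199_at alone, was below the filter, with 15.6 and 9.60, then 6.55 and 6.31, so no difference is given for it and it entered no fit, although its values are among those behind the counts over 10 genes and the medians of the members below.

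The genotype comparison asks what differed where Tacc3 was floxed. At day 4, 2 of the 10 members were 2-fold higher in fl/fl organoids, Muc2 by 1.29 and Agr2 by 1.16 on the log2(intensity + 16) scale, and 0 were 2-fold lower. Of all genes above the filter, 1.38% were 2-fold higher and 0.105% 2-fold lower. Muc2 had the 29th and Agr2 the 58th highest difference of the 11392 genes, and Spdef, with 0.90, the 266th. Tff3 (0.51), Fcgbp (0.43) and Muc13 (0.41) followed, and Muc4 (0.19), Ern2 (0.15) and Zg16 (-0.09) were lowest of the 9 members above the filter. The median of the 10 members, with Muc1 from below the filter, was 0.42, beside 0.15 for all genes above the filter. With quantile normalization, which took the median of all genes to 0.01, Muc2 was at 1.11 and Agr2 at 0.95, short of 2-fold.

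At day 6 no member differed 2-fold between genotypes, where 0.211% of all genes were higher and 0.571% lower. The members ranged from -0.59 for Ern2 to 0.19 for Agr2. Their median, again with Muc1, was -0.0027, beside 0.05 for all genes above the filter. Muc2 stood at -0.21, Muc4 at -0.23, and Spdef, Tff3, Fcgbp, Zg16 and Muc13 all between -0.02 and 0.10. From day 4 to day 6 the genotype difference of Muc2 therefore shifted by -1.50, the 85th lowest shift of 11392 genes. It was the 1 member of 10 with a shift past 2-fold in that direction, against 4.1% of all genes; Agr2 (-0.97) and Spdef (-0.89) came next.

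**Figure D2:**
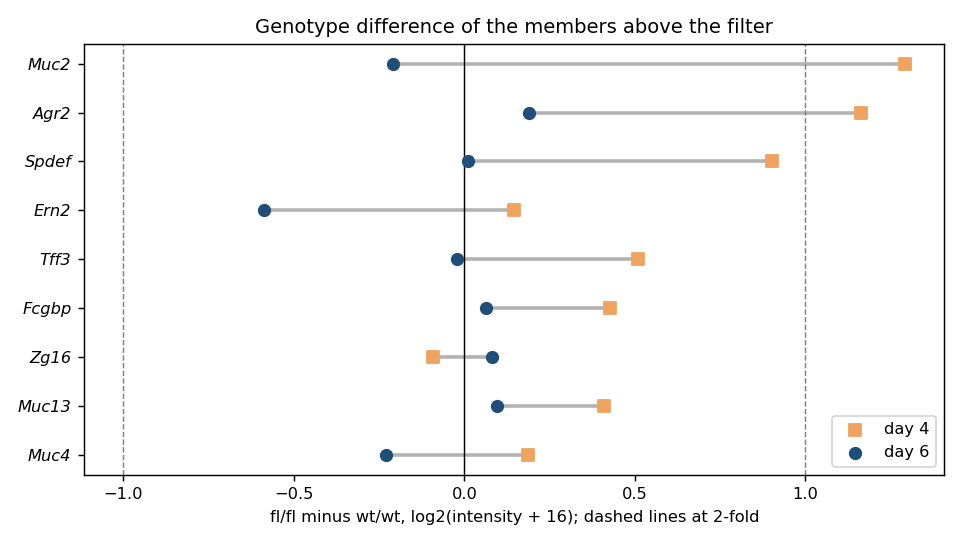
Difference of fl/fl minus wt/wt organoids for the 9 members above the filter, on the log2(intensity + 16) scale, at day 4 (squares) and day 6 (circles), 1 array per group and no error bars. Muc2 (1.29) and Agr2 (1.16) pass the dashed 2-fold line at day 4, and none of the 9 passes it at day 6.

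A fit of genotype and day without their interaction (limma, 1 residual degree of freedom, which measures how far the 2 days disagree) called 0 of the 9 members above the filter by genotype. It called 0% of the 11392 genes at an adjusted p under 0.05; at an unadjusted p under 0.05 it would name 609, 1 of them a member. That member was Agr2, higher in fl/fl organoids by 0.68 with a standard error of 0.27 (limma adjusted p = 0.784); Muc2 had 0.54 with 0.35 (adjusted p = 0.799). The day 4 differences have no test of their own.

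Paneth cell markers, of the other secretory cell at the crypt base, shared the highest array. All 6 of the 6 measured markers were highest in fl/fl organoids at day 4 (all genes, 25%), and their summed intensity went from 45508 and 62404 to 41374 and 37979. Of the 6, 3 were called lower at day 6 by the additive limma fit described above (all genes, 7.15%). The summed intensity of 10 goblet cell markers, 6 of which are members, went from 20359 and 29478 to 12825 and 13296. Most of that sum came from Spink4 (9596 and 13182, then 4855 and 5373) and the member Tff3 (9264 and 13202, then 6314 and 6223). Over the 9 goblet cell markers above the filter, the median day difference was 0.06 in wt/wt, with 1 of them 2-fold lower (all genes, 2.97%). In fl/fl it was -1.08, and 5 of the 9 were 2-fold lower (all genes, 2.9%). These were the members Muc2, Spdef and Tff3, with Spink4 and Rep15. Enterocyte markers ran from 1127 and 1261 to 5147 and 8259. Stem cell markers ran from 1413 and 1218 to 8960 and 5282, a sum carried by Olfm4 (834 and 391, then 6534 and 3478), while Lgr5 was the higher in fl/fl at day 4 (262 and 405). Enteroendocrine markers summed to 635 and 804, then 580 and 1273, with 3 of 8 at least 2-fold higher in fl/fl at day 6 (median 0.64). Tuft cell markers summed to 111 and 95.0, then 110 and 182, with 1 of 4 higher by that size (median 0.38). Of all genes above the filter, 0.211% were 2-fold higher in fl/fl at day 6. The part of these cell types in the members' differences was not tested.

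The comparison of day 6 with day 4 asks what differed between the days in each genotype. Muc13 and Muc4 rose from day 4 to day 6, and Ern2, Spdef and Tff3 fell. In the additive fit, whose residual is the disagreement of the 2 genotypes, 2 of the 9 members above the filter were called higher at day 6 and 3 lower, beside 22.8% of all genes called higher and 7.15% called lower; the share of members called higher is near that of all genes. Muc13 rose by 1.14 (standard error 0.20, limma adjusted p = 0.00988) and Muc4 by 1.14 (0.21, adjusted p = 0.0111). Ern2 fell by 1.21 (0.24, limma adjusted p = 0.0140), Spdef fell by 0.97 (0.26, adjusted p = 0.0348) and Tff3 fell by 0.82 (0.22, adjusted p = 0.0339). Muc2 (-0.69, adjusted p = 0.177), Zg16 (0.36, adjusted p = 0.189), Fcgbp (0.12, adjusted p = 0.653) and Agr2 (0.02, adjusted p = 0.967) did not pass the limma test.

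Some of these calls rest on a setting. The Muc4 call was lost when the mean of its probe sets was used (0.34, limma adjusted p = 0.151) and without x_at and s_at probe sets (0.08, adjusted p = 0.812). The calls of Tff3, Spdef and Ern2 were lost when dim genes were kept in the fit (limma adjusted p = 0.0870, 0.123 and 0.0704), and that of Spdef also with pseudocount 64 (adjusted p = 0.0619). Muc2 passed the limma test after quantile normalization (-1.05, adjusted p = 0.0164), and the Muc13 call held under every alternative run.

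**Figure D3:**
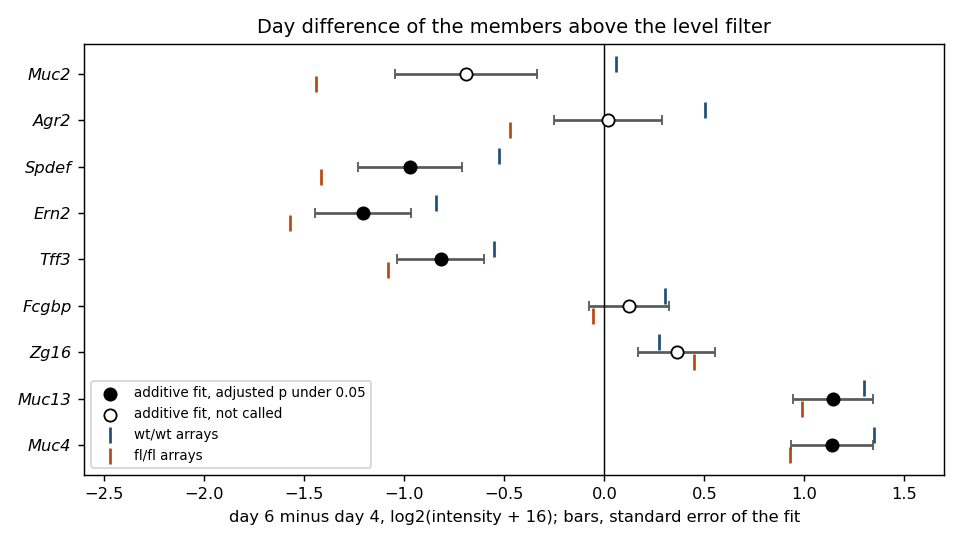
Day 6 minus day 4 on the log2(intensity + 16) scale for the 9 members above the filter: circles show the additive fit with its standard error, filled where the limma adjusted p is under 0.05, and ticks show each genotype's own difference. Muc13 and Muc4 lie to the right in both genotypes, Ern2, Spdef and Tff3 to the left, and the ticks of Muc2 and Agr2 lie far apart.

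Within each genotype the sizes differed. In wt/wt organoids 2 of 10 members were 2-fold higher at day 6, Muc4 (1.35) and Muc13 (1.30), and 0 were 2-fold lower, beside 18.3% and 2.97% of all genes. Ern2 (-0.84), Tff3 (-0.55) and Spdef (-0.52) were lower by less, Muc2 (0.06) was nearly level, and Agr2 (0.50), Fcgbp (0.30) and Zg16 (0.28) were slightly higher. In fl/fl organoids 4 of 10 members were 2-fold lower, Ern2 (-1.57), Muc2 (-1.44), Spdef (-1.42) and Tff3 (-1.08), and 0 were 2-fold higher, beside 2.9% and 12.2% of all genes. Ern2 had the 39th, Muc2 the 63rd and Spdef the 74th lowest difference of the 11392 genes. Muc13 (0.99), Muc4 (0.93) and Zg16 (0.45) were higher, and Agr2 (-0.47) and Fcgbp (-0.06) lower, by less than 2-fold on this scale. The added 16 puts Muc13 and Muc4 under the line, since their plain intensity ratios were 2.01 and 2.18. Over the 10 members, Muc1 included, the median was 0.17 (wt/wt) and -0.33 (fl/fl), beside 0.17 and 0 for all genes above the filter. The sets are unlike, since Muc1 lies below the filter. Quantile normalization took the median of all genes above the filter to -0.13 and -0.12, and with it Muc2 (-0.36), Fcgbp (-0.17) and Zg16 (-0.20) turned lower in wt/wt organoids. The fl/fl arrays include the day 4 array on which 6 members were highest, so the day and genotype values of that array are not separate observations.

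**Figure D4:**
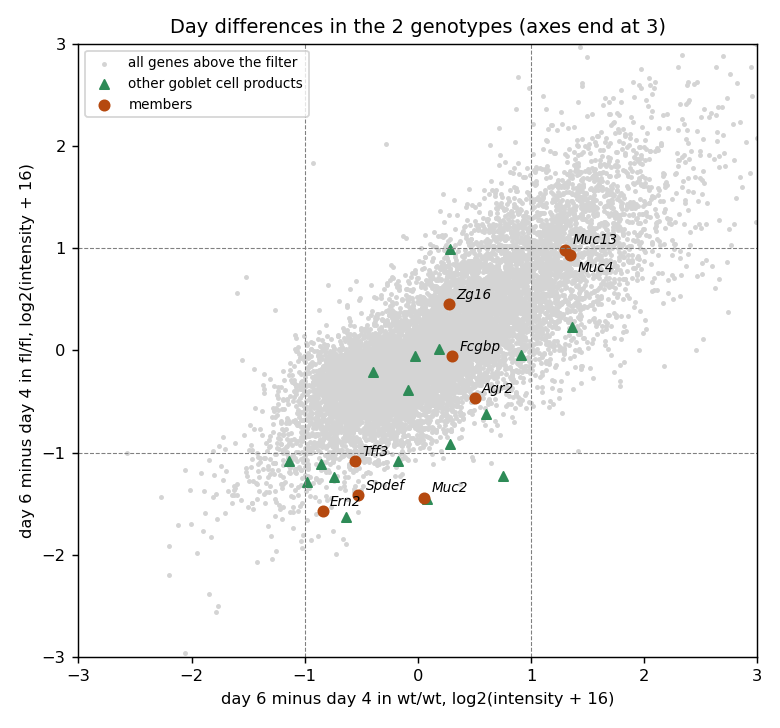
Day 6 minus day 4 in wt/wt (horizontal) against fl/fl organoids (vertical) on the log2(intensity + 16) scale, for all genes above the filter (grey), 17 other goblet cell products (triangles) and the 9 members above the filter (circles), with dashed lines at 2-fold. Muc2, Spdef, Ern2 and Tff3 lie below the lower dashed line in fl/fl organoids and inside the lines in wt/wt organoids, among 8 of the other goblet cell products that are also 2-fold lower in fl/fl organoids.

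The genes whose log2 values followed Muc2 most closely over the 4 arrays, by root mean square distance after centring each gene, were Reg4 (0.11), Ttc39a (0.15), Slc39a7 (0.17), Psrc1 (0.18) and Lamb3 (0.19). Reg4, a secreted lectin of the Reg family, gave 243 and 731, then 258 and 256. Among members, Spdef was the 9th nearest gene (0.21) and Tff3 the 78th (0.29), while Muc13 was far off (0.98). With 4 arrays such likeness is a description only.

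Other products of goblet cells, a list of 20 genes that holds no member, were placed beside the members, and 17 of them lay above the filter. The list shares Clca1, Retnlb, Spink4 and Rep15 with the goblet cell markers above, so the counts of these lists are not separate. In fl/fl organoids 8 of the 17 were 2-fold lower at day 6 and 0 higher (all genes, 2.9% and 12.2%), with a median of -0.91, whereas in wt/wt organoids 1 was 2-fold lower and 1 higher (all genes, 2.97% and 18.3%), with a median of -0.02. At day 4, 4 of 17 were 2-fold higher in the fl/fl culture (median 0.51; all genes, 1.38%), and at day 6 0 of 17 (median -0.01). The highest array was fl/fl day 4 for 13 of the 17 (all genes, 25%). The additive limma fit called 5 of 17 lower at day 6 and 0 higher, against 7.15% and 22.8% of all genes. Among these the protease inhibitor gene Spink4 fell by 1.14 (limma adjusted p = 0.0101), from 9596 and 13182 to 4855 and 5373. Rep15, an effector of Rab15, fell by 1.11 (limma adjusted p = 0.00939), and Bcas1 fell by 1.13 (adjusted p = 0.0256). Sytl2, which acts in granule exocytosis, resembled Muc2, with 52.6 and 209, then 99.2 and 79.7.

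Of 11 other mucins on the list, 6 were on the array and 3 lay above the filter. Muc3, a membrane mucin of the brush border, rose by 2.79 (limma adjusted p = 0.00292), from 40.5 and 45.5 to 351 and 437. Muc20 read 43.6 and 18.2, then 14.2 and 19.5, and Muc5ac, the gastric gel-forming mucin, stayed between 14.3 and 23.9; neither passed the limma test (adjusted p = 0.238 and 0.248).

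Of 19 genes above the filter for enzymes and helpers that build O-linked sugars on mucins, the additive limma fit called 5 higher and 3 lower at day 6, where all genes gave 22.8% and 7.15%, so the share called higher is near that of all genes. The sialyltransferase gene St3gal4 rose by 3.0 (limma adjusted p = 0.0039), from 35.4 and 32.9 to 284 and 519. C1galt1, which makes the core 1 structure, rose by 1.61 (limma adjusted p = 0.00602) and its chaperone C1galt1c1 rose by 2.0 (adjusted p = 0.00398). Galnt7, a transferase of the first sugar, rose by 1.97 (limma adjusted p = 0.00499). Between genotypes, Gcnt3, a branching enzyme, differed by 1.02 at day 4 and -0.09 at day 6.

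Of the genes of ER folding and secretion, 7 of 23 were 2-fold higher in fl/fl than wt/wt organoids at day 4 (all genes, 1.38%), with a median of 0.72, against 0 of 23 at day 6 with a median of 0.28. Between the days, 9 of 23 were 2-fold higher at day 6 in wt/wt (all genes, 18.3%) and 3 of 23 in fl/fl organoids (all genes, 12.2%, a share near that of the list). The additive limma fit called 7 of 23 higher and 0 lower, against 22.8% and 7.15% of all genes. The disulfide isomerase gene Pdia3 rose by 1.95 (limma adjusted p = 0.00414), the cochaperone gene Dnajb9 rose by 1.52 (adjusted p = 0.00499) and Ssr3, of the translocon-associated complex, rose by 1.35 (adjusted p = 0.00697). Dnajc3, another cochaperone, differed by 1.07 between genotypes at day 4 and 0.51 at day 6.

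**Figure D5:**
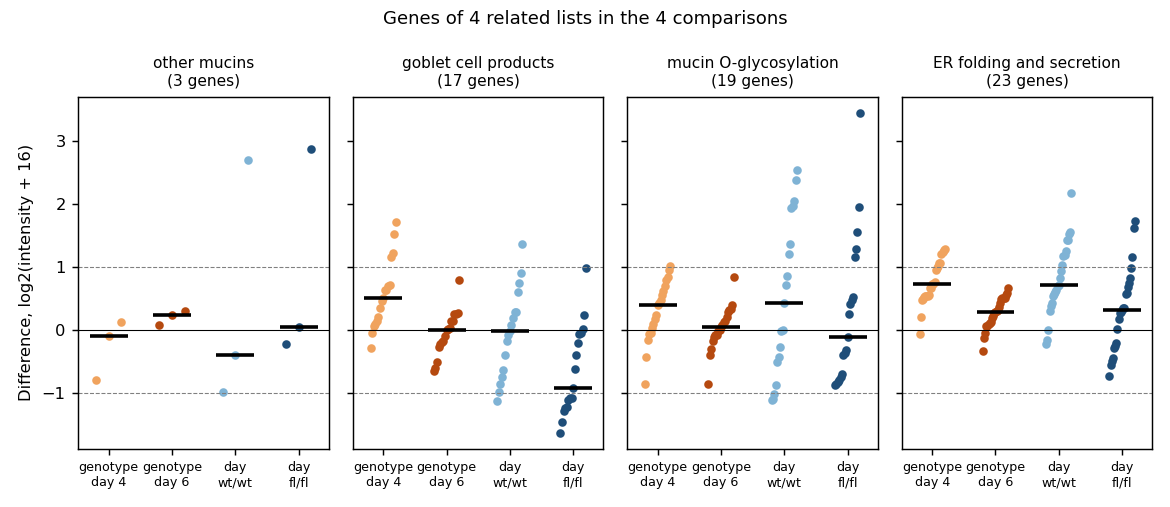
Differences on the log2(intensity + 16) scale of the genes above the filter in 4 lists (3 other mucins, 17 goblet cell products, 19 O-glycosylation genes, 23 genes of ER folding and secretion) in the 4 comparisons, 1 point per gene, with the median as a black bar and dashed lines at 2-fold. Goblet cell products sit lowest in the day comparison of fl/fl organoids (median -0.91), and ER folding genes sit highest between genotypes at day 4 (median 0.72).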

How the data were processed

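The deposited table gives 1 linear intensity per probe set and array for 45101 probe sets, as the values themselves show. Per the labels' protocols, biotinylated cRNA was made from 100 ng of total RNA by a 3' IVT kit; which summarisation, background correction and normalization were applied is not given in the sources used. Array medians ran from 15.4 to 17.7, and the number of arrays limits the precision. The deposited intensities were used as log2(intensity + 16), without further scaling, a scale that understates the differences of dim genes. Platform gene symbols were brought up to date by Entrez ID (RefSeq, GRCm38.p6), which matched 34754 of 34958 probe sets with 1 symbol and all 10 members. Each gene was represented by its brightest probe set, and 11392 genes reached the median of all probe sets.

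Differences of at least 2-fold were counted without a test. An additive fit of genotype and day (limma 3.58.1 in R 4.3.3, lmFit and eBayes, 1 residual and 5.31 prior degrees of freedom, Benjamini-Hochberg over all 11392 genes) gave the tested values. The fit was tested on simulated data of the day comparison with 11392 genes. It recovered 63 of 100 genes changed by 1 and 100 of 100 changed by 2 on the log2 scale, with 2 false calls. Every simulated gene had the same spread, whereas real genes differ in theirs. These numbers therefore do not give the recovery or the false calls on the real arrays. The residual of the fit takes the genotypes as repeats of the day difference, so its p-values cover the spread between these arrays only. The alternatives were pseudocounts 4 and 64, quantile normalization, 2 kinds of centring, no filter, the mean of probe sets, no x_at or s_at probe sets, and a trended robust fit. Named genes were all members, up to 4 per list with the largest mean absolute day difference and up to 2 with the largest mean absolute genotype difference (the text gives part of these), and the 5 genes nearest to Muc2. The members and lists were chosen with earlier results of these data known.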

Additional observations from a re-analysis of the deposited data

Results flagged for a closer look

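For 7 of the 9 members above the filter, the genotype difference, the day difference or both pointed in opposite directions in the groups compared. The difference between these effects was not tested, since each group has 1 array. Any change of sign was included, whatever its size, and the share of all genes with such a change was not counted. Whether 7 is many is therefore unknown. Some rest on small genotype differences, such as Tff3 at day 6 (-0.02) and Zg16 (-0.09 at day 4, 0.08 at day 6). The shift of the genotype difference from day 4 to day 6, on the log2(intensity + 16) scale, was -1.50 for Muc2, -0.97 for Agr2, -0.73 for Ern2, -0.53 for Tff3, -0.42 for Muc4, -0.36 for Fcgbp and 0.17 for Zg16. Of these, Muc2 alone passed 2-fold.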

How the results depend on the processing

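No paired analysis was possible because each group has 1 array and the labels give no replicate numbers to pair, and no replicate could be left out; the additive fit itself takes the day difference within genotype. Of 401 values of single members under the alternatives, 361 kept their direction and their side of the threshold, 15 no longer passed it, 7 passed it newly, 18 that had not passed it changed sign, and 0 that had passed it changed sign. Part of the 361 could not change, so their share overstates stability. Leaving out the filter alters no difference, and the mean of probe sets alters none for a gene with 1 probe set. Leaving out x_at and s_at probe sets alters none for a gene whose brightest probe set is of neither kind. For fl/fl minus wt/wt at day 4, the members 2-fold higher went from 2 to 1 with quantile normalization, with the mean of probe sets and with centring on the genes above the filter (chosen after seeing the data), each time through Agr2 (0.95, 0.91 and 0.95). At day 6 the members' median turned from -0.0027 to 0.00096 with pseudocount 64, 0.0036 with quantile normalization and 0.016 with median centring. For day 6 minus day 4 in wt/wt organoids, the members 2-fold higher went from 2 to 1 with pseudocount 64, quantile normalization, the mean of probe sets and leaving out x_at and s_at probe sets, and to 0 with centring on the genes above the filter. Members 2-fold lower went from 0 to 1 (Ern2) with quantile normalization (-1.21) and that centring (-1.23), and the median from 0.17 to -0.28 and -0.22. That centring took the median of all genes to -0.22 (wt/wt) and -0.21 (fl/fl). In fl/fl organoids, members 2-fold higher went from 0 to 2 with pseudocount 4 and to 1 with median centring. In the additive limma fit by day, members called lower went from 3 to 0 without the filter, when more dim genes were tested, and members called higher from 2 to 1 with the mean of probe sets and when x_at and s_at probe sets were left out; Muc2 was called with that centring (adjusted p = 0.000313). Other causes were not tested. A probe set near or below the median intensity, such as that of Muc1, has little room to show a fall on this scale.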

Other observations

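Of 12 transcription factors of the secretory lineage, all above the filter, the additive limma fit called 2 higher and 1 lower at day 6, shares near the 22.8% and 7.15% of all genes. Hes1, a Notch target that represses secretory fate, rose by 1.26 (limma adjusted p = 0.00688), from 83.8 and 77.0 (wt/wt, then fl/fl) to 230 and 201. Foxa1, a forkhead factor of gut secretory cells, rose by 1.09 (limma adjusted p = 0.0112). Foxa3, another forkhead factor, fell by 0.69 (limma adjusted p = 0.0426), from 418 and 517 to 282 and 281. Xbp1, whose RNA is spliced by the IRE1 sensors, read 569 and 1038 at day 4 and 1505 and 1270 at day 6 and did not pass the limma test (adjusted p = 0.0721); between genotypes it differed by 0.85 at day 4 and -0.24 at day 6.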
